A study of Mus musculus with 190 samples.

Results

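The immunoglobulin kappa variable (Igkv) segments were followed in whole blood of NC/Nga mice, a strain in which dermatitis resembling atopic dermatitis can appear under conventional housing. Members were the rows of the deposited count table with the gene type IG_V_gene and a name starting with Igkv, 100 of 55414 genes. That rule used no value measured in these libraries, though it was chosen with earlier results of these data known. All mice were male wild-type NC/Nga. The table held 190 libraries of tail-vein blood, each from a sample with a housing, a group, a sampling day and a dermatitis score. Group 1 to group 9 were kept conventionally, with 10 libraries per group and day. They were first sampled on day 2, 5, 9, 12, 16, 19, 23, 26 and 30 in that order. The second sampling was on day 44 for groups 1, 3, 5, 7 and 9 and on day 40 for groups 2, 4, 6 and 8. The control mice were specific-pathogen-free (SPF), had a score of 0 and gave 5 libraries on day 16 and 5 on day 44. The labels give no treatment and no transgene, and they number the samples without saying that a number marks the same mouse on both days.

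As background, an antibody light chain of the kappa type is encoded by a V segment, a J segment and the constant gene Igkc. A developing B cell joins 1 V segment to 1 J segment by cutting and rejoining its DNA with the Rag recombinase, and most B cells then carry a single productive light chain. The V segment forms most of the light chain's variable domain, including the first and second antigen-contacting loops and much of the third. Kappa is the main light chain type in mice, and lambda the lesser one. In blood, transcripts of V segments come from naive and memory B cells and, at a much higher amount per cell, from antibody-secreting plasmablasts and plasma cells. A broad use of V segments is typical of a polyclonal B cell pool, and a single segment that takes most of the reads is typical of a large clone.

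The 3 segments that led most libraries are given here with their nearest relatives, because reads of such copies can be assigned to either. The letters are the last 60 bases of the germline coding sequence, from the 5′ to the 3′ end, as in the GENCODE reference transcripts with the same gene identifier. That reference is of build GRCm38, and all 100 segments were matched to it by identifier. Capitals mark the bases that differ within a pair. The first segment, ENSMUSG00000094335.3, is named here by its identifier and is called the leading Igkv1 segment, and its symbol stands in the plot of levels along the locus.
ENSMUSG00000094335.3: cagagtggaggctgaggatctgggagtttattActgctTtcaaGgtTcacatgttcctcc
Igkv1-110: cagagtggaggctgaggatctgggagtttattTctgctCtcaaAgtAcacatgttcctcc
Igkv10-96: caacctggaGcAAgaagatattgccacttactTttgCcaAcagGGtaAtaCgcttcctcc
Igkv10-94: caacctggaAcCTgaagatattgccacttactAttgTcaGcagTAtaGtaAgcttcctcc
The leading Igkv1 segment and Igkv1-110 differed at 4 of these 60 bases and at 10 bases over the whole coding sequence, which makes them 97.2% identical. Igkv10-96 and Igkv10-94 differed at 10 of the 60 bases and at 16 over the whole coding sequence, an identity of 95.4%. The stretch shown ends in the third antigen-contacting loop, where the V segment is joined to the J segment. Of the 100 segments, 46 had a relative at 95% identity or more, and so did 8 of the 10 segments with the highest mean level. Values of such pairs are uncertain to the extent that the authors' counting could split reads between copies. Names and sequences are those of the reference genome, and whether NC/Nga mice carry the same copies was not tested. Low or absent levels and gaps between relatives are subject to the same limit.

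The segments lay on chromosome 6 between 67532481 and 70681161 (GRCm39), a span of 3148 kb, with 38 on the plus and 62 on the minus strand. Igkc lay at 70703419 to 70703950. Levels between segments are given in TPM (transcript abundance scaled to gene length and to the library). Igkv10-96 (ENSMUSG00000094420.3, chr6:68608947-68609426, minus strand) had the highest mean over the 190 libraries, 5.46 ± 3.23 TPM (SD, n = 190). The leading Igkv1 segment (ENSMUSG00000094335.3, chr6:68098030-68098811, plus strand) followed at 4.93 ± 3.07 TPM and Igkv1-110 (ENSMUSG00000093861.3, chr6:68247469-68248251, plus strand) at 3.59 ± 2.32 TPM. Igkv6-17, Igkv19-93, ENSMUSG00000096336.3 of family Igkv1, ENSMUSG00000095771.3 of family Igkv14, Igkv5-43, Igkv3-7 and Igkv12-44 completed the 10 highest, from 2.93 TPM down to 2.19 TPM. The spread between libraries exceeded the steps from one of these segments to the next, so their order is a description. At the other end, Igkv1-35 had 0.00565 TPM with a count in 4 libraries, and 7 segments reached a count of 10 in no library.

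**Figure D1:**
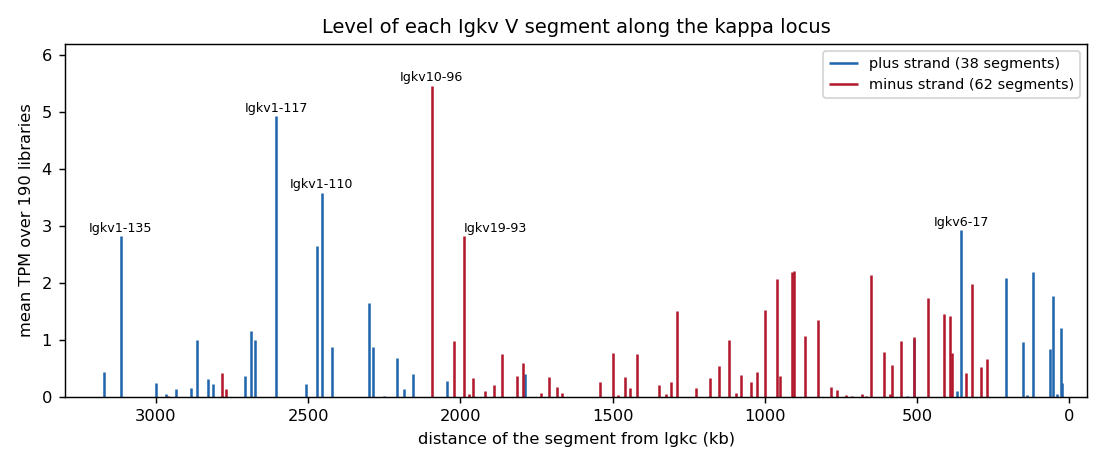
Mean level of each of the 100 Igkv V segments over 190 libraries (y axis, TPM) against its distance from Igkc (x axis, kb, with Igkc at the right), 1 line per segment coloured by strand. High and low segments alternate along the whole locus, and the 3 highest, Igkv10-96, the leading Igkv1 segment and Igkv1-110, lie in the left part of the locus.

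The 25 segments nearest to Igkc held 29.8% of the summed TPM, the next 25 held 22.6%, the 25 after those 19.0% and the 25 farthest from Igkc 28.6%. Pearson's r between mean TPM and distance was -0.0039 across the 100 segments, which share the same libraries and are not independent. The plus-strand segments held 45.2% of the summed TPM and the minus-strand segments 54.8%.

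By family, the 10 members of Igkv1 held 15.4% of the summed TPM, the 9 of Igkv6 14.8% and the 9 of Igkv3 11.2%. Igkv4, the family with the most members (26), held 10.7%, a mean of 0.346 TPM per member against 1.29 TPM in Igkv1. Near relatives could differ in level. Igkv10-96 stood at 5.46 TPM and its relative Igkv10-94 at 0.982 TPM, and ENSMUSG00000096336.3 stood at 2.82 TPM and its relative ENSMUSG00000094491.3 at 0.2499 TPM. Igkv3-7 and Igkv3-12 (96.7% identical) had similar levels of 2.20 and 2.09 TPM.

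No library was dominated by 1 segment. The most used segment took between 5.31% and 17.2% of the Igkv counts of a library, with a median of 7.80%, and it passed 20% in 0 of 190 libraries. The leading Igkv1 segment was the most used one in 63.7% of the 190 libraries, Igkv10-96 in 35 libraries and Igkv1-110 in 22. In all, 11 segments led at least 1 library. Pooled over all libraries, these 3 segments held 18.6% of the Igkv counts and the 10 with the highest pooled counts held 41.03%. The effective number of segments, 1 over the sum of squared shares corrected for the number of reads, had a median of 34.1 and ran from 16.2 to 44.2.

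**Figure D2:**
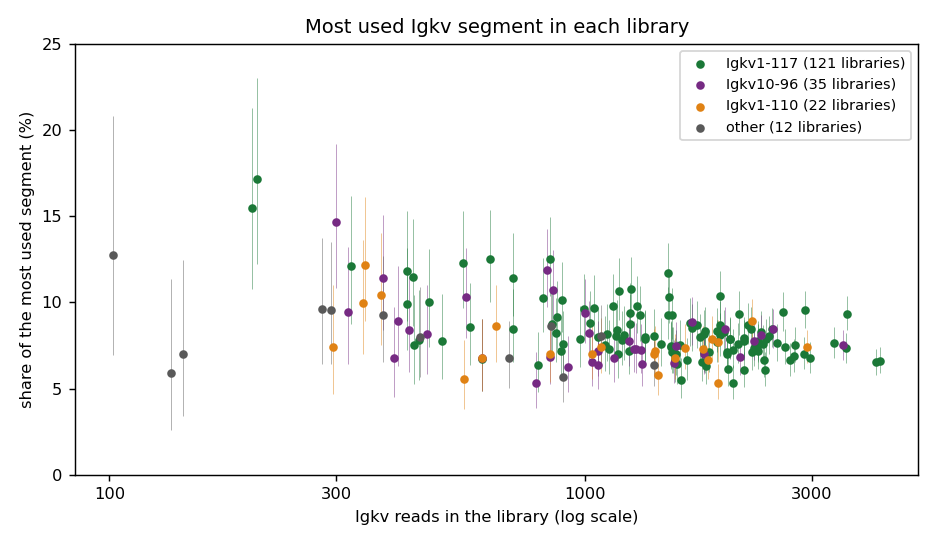
Share of the most used Igkv segment in each library (y axis, %) against the Igkv reads of that library (x axis, log scale), 1 point per library coloured by segment. Vertical lines are nominal 95% binomial intervals, which do not allow for the choice of the highest segment. Shares above 15% occur in 2 libraries with 200 and 204 Igkv reads, and the points draw together as reads increase.

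The highest shares came with few reads. The highest, 17.2% for the leading Igkv1 segment in group 1, day 44 (replicate 4), rested on 35 of 204 counts, with an exact (Clopper-Pearson) 95% interval of 12.3% to 23.0%. The second, 15.5% for the same segment in group 7, day 23 (replicate 6), rested on 31 of 200 counts, with an interval of 10.8% to 21.3%. Among libraries with 300 Igkv reads or more, which leaves out 8, the highest share was 14.7%. The intervals cover counting error only, since these reads carry no molecular identifiers. They do not allow for the choice of the highest segment and library, so their 95% level is nominal. The number of Igkv reads had a median of 1398 and a maximum of 4181, out of totals of 21444113 to 71967285 counts per library.

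Segment shares in SPF and conventional blood are described here without a test. The leading Igkv1 segment took 7.24% of the Igkv counts in the 10 SPF libraries (SD 1.69), 7.44% in the 90 of the first sampling (SD 1.76) and 7.45% in the 90 of the second (SD 2.34). Igkv10-96 took 6.06%, 5.99% and 5.79% in the same order. Across the 100 segments, mean shares had r = 0.990 between SPF and the first sampling and 0.984 between SPF and the second, a description over segments that come from the same libraries. The largest difference between SPF and the second sampling was 1.07 percentage points, for Igkv3-12, which took 3.06% in SPF (SD 0.944) and 1.99% in the second sampling (SD 1.15). Igkv5-43 differed most between the samplings, at 2.46% in the first (SD 0.941) and 3.22% in the second (SD 1.73).

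Some libraries stood apart in ways that touch the levels below. SPF day 16 replicate 3 had 45.3% of its counts on globin genes. The median globin share was 3.58% in groups 1 to 4 and 7.83% in groups 6 to 9, and the median mitochondrial rRNA share 6.92% and 15.4%, so values within each set are given beside the pooled ones. CPM values divide a count by all counts of a library, and the fits scale by TMM (trimmed mean of M-values). Relative to TMM, CPM lowered every gene by 0.84 log2 units for conventional against SPF mice on day 44 and by 0.43 for the second against the first sampling. Both scales are therefore given, and changes are read against the median of all genes.

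By group median, the summed Igkv level was highest in SPF blood on day 44 and next in the earliest conventional samplings. It was lowest in the second sampling and in the first sampling of groups 7 and 9. In SPF mice the sum was 94.6, 46.5, 26.9, 53.3 and 63.4 CPM on day 16 and 79.6, 111.2, 71.4, 72.7 and 92.3 CPM on day 44. The lowest of these was the library with the high globin share. Group 1 on day 2 ran from 42.6 to 75.7 CPM with a median of 57.4 CPM. For groups 2 and 3 the medians were 64.2 and 62.6 CPM. Those of groups 4, 5 and 6 were 47.8, 52.6 and 47.6 CPM. Group 7 on day 23 was the lowest first sampling, from 7.06 to 43.4 CPM with a median of 21.2 CPM. Group 8 had a median of 45.7 CPM and group 9 one of 30.7 CPM. In the first sampling of groups 4 to 9, 33 of 60 libraries lay below the lowest library of groups 1 to 3, which stood at 42.6 CPM. Of those, 9 of 10 were in group 7 and 9 of 10 in group 9, and 3 to 5 of 10 in each of groups 4, 5, 6 and 8.

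**Figure D3:**
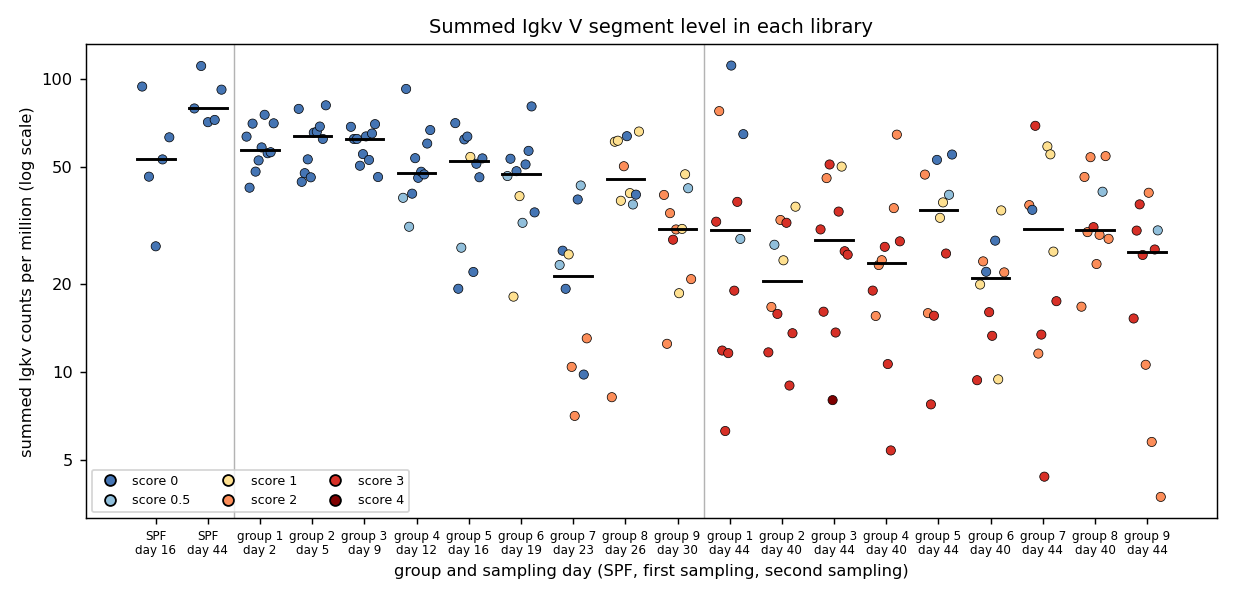
Summed Igkv CPM (y axis, log scale) in each of the 190 libraries by group and sampling day (x axis), coloured by dermatitis score, with the group median as a black bar. Medians are 53.3 and 79.6 CPM in SPF mice, 57.4 to 64.2 CPM on days 2 to 9, and 20.3 to 35.8 CPM in the second sampling, where single libraries range from 3.73 to 111.6 CPM.

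In the second sampling the group medians lay between 20.3 CPM (group 2, day 40) and 35.8 CPM (group 5, day 44). The libraries within a group spread widely: group 1 on day 44 ran from 6.26 to 111.6 CPM with a median of 30.5 CPM. Group 9 on day 44 held the lowest library of all, at 3.73 CPM. All 10 second-sampling libraries of groups 2, 3 and 6 were below the median of their own first sampling, as were 7 to 9 of 10 in groups 1, 4, 5, 8 and 9. In group 7, whose first sampling was the lowest, 4 of 10 were below it. In whole blood, fewer B cells and less Igkv RNA per B cell cannot be told apart.

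The number of segments with a count of at least 10 followed the number of reads. It had a median of 48 in SPF day 16, 61 in SPF day 44, 51 in group 1 on day 2 and 24.5 to 41 in the second-sampling groups. The lowest was 0, in a library of group 4, day 40. When every library was thinned to the Igkv total of the shallowest, the expected number of segments seen was 43.8 in SPF (median, n = 10), 43.2 in the first sampling and 42.1 in the second (n = 90 each).

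Of the 100 segments, 82 passed the filter on low counts and entered the fits over 18192 genes. The 18 others held 0.754% of the Igkv counts. A gene was called at an edgeR adjusted p under 0.05 (quasi-likelihood test, Benjamini-Hochberg adjustment over all tested genes). The labels do not say that conventional and SPF mice shared a room or a batch, so housing and any such difference cannot be told apart.

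On day 16, conventional mice of group 5 and SPF mice overlapped in the summed Igkv level. Group 5 ran from 19.2 to 70.9 CPM (median 52.6) against 26.9 to 94.6 CPM in SPF mice, a difference of -0.29 ± 0.37 (log2 CPM ± SE) and -0.33 ± 0.20 on the TMM scale. No segment of 82 was called by edgeR, 4 had an unadjusted p under 0.05, and DESeq2 called 0, while 0.533% of all tested genes were called, 0.379% higher and 0.154% lower. The leading Igkv1 segment differed by -0.30 ± 0.28 (log2 ± SE), Igkv1-110 by -0.35 ± 0.24 and Igkv10-96 by -0.50 ± 0.34. The median over the 82 segments was -0.23, beside 0.06 over all genes. That median was -0.10 without SPF replicate 1 and -0.35 without SPF replicate 2, and the summed difference was -0.07 ± 0.34 (log2 CPM ± SE) without replicate 1 and -0.53 ± 0.31 without replicate 3, the library with the high globin share.

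On day 44 the summed level was lower in conventional than in SPF blood. The 50 conventional libraries ran from 3.73 to 111.6 CPM with a median of 29.4 CPM, and 48 of them lay below the lowest SPF library at 71.4 CPM. On the TMM scale 43 of 50 did. The difference of means was -1.77 ± 0.20 (log2 CPM ± SE) and -0.93 ± 0.13 on the TMM scale. Of the 82 segments 12 were lower and 0 higher (edgeR), a share of 14.6% beside 11.6% of all genes called lower and 10.1% called higher (21.6% in all). The median over the segments was -0.88, beside -0.06 over all genes.

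Among the 12 called segments, the 5 lowest log2 values on day 44 were those of Igkv3-2, Igkv3-12, Igkv6-17, Igkv6-23 and Igkv6-25, while the values of segments that were not called reached -2.10. Igkv3-2 was at 2.35, 1.62, 1.75, 1.41 and 1.17 CPM in the SPF libraries and at 0 to 1.64 CPM (median 0.399) in the conventional ones, so the groups overlapped. Its difference was -1.39 ± 0.40 (log2 ± SE, edgeR adjusted p = 0.0104). Igkv3-12 was at 1.94, 2.46, 2.78, 2.89 and 2.49 CPM in SPF mice and at 0 to 2.80 CPM (median 0.596) in conventional mice, a difference of -1.34 ± 0.39. Igkv6-17 was at 2.91, 6.01, 3.59, 3.36 and 3.40 CPM in SPF mice and at 0 to 3.10 CPM (median 1.06) in conventional mice, and fell by 1.13 ± 0.30 (log2 ± SE). Igkv6-23 and Igkv6-25 fell by 1.12 ± 0.33 and 1.12 ± 0.42.

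The 3 leading segments were lower on day 44 as well, by less. The leading Igkv1 segment was at 5.30, 7.26, 3.95, 5.77 and 6.78 CPM in the SPF libraries and at 0.156 to 8.51 CPM (median 2.16) in the conventional ones. It fell by 0.75 ± 0.28, Igkv1-110 by 0.75 ± 0.28 and Igkv10-96 by 0.89 ± 0.30 (log2 ± SE). These calls depended on the small SPF group: leaving out any 1 SPF replicate left 4 to 6 segments called, beside 11.9% to 17.2% of all genes. With the globin and mitochondrial rRNA shares as covariates 27 segments were called, beside 34% of all genes. Against groups 1 and 3 alone, whose globin shares are like those of SPF mice, 9 segments were lower, beside 21.6% of all genes called. The summed difference was -1.63 ± 0.28 (log2 CPM ± SE), and the median over the segments was -0.75 on the TMM scale.

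Within housings, the course from day 16 to day 44 was examined in group 5 and in SPF mice. In group 5 the sum went from a median of 52.6 to 35.8 CPM, a difference of -0.60 ± 0.36 (log2 CPM ± SE) and -0.33 ± 0.25 on the TMM scale. Igkv3-5 fell by 1.11 ± 0.36 (log2 ± SE, edgeR adjusted p = 0.0377) and ENSMUSG00000096336.3 by 0.81 ± 0.27 (adjusted p = 0.0397). These were 2 of 82 segments, a share of 2.44% beside 4.54% of all genes called lower and 8.03% called higher (12.6% in all), and 0 were called among the group 5 libraries with a globin share of 5% or more (3 at an unadjusted p under 0.05, beside 2.95% of all genes called). In SPF mice the median sum was 53.3 CPM on day 16 and 79.6 CPM on day 44, a difference of 0.68 ± 0.32 (log2 CPM ± SE) and 0.19 ± 0.17 on the TMM scale. For SPF mice edgeR called 0 of 82 segments and 0% of all genes (3 segments at an unadjusted p under 0.05, and 0 by DESeq2). The difference between the 2 courses was tested too, with 0 of 82 segments and 0% of all genes called (6 at an unadjusted p under 0.05, and 0 by DESeq2).

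Over the 90 first-sampling libraries of conventional mice, later days had lower Igkv levels. The sum changed by -0.45 ± 0.08 per 10 days (log2 CPM ± SE) and by -0.27 ± 0.06 on the TMM scale. For the trend 34 of 82 segments were called lower and 0 higher, a share of 41.5% beside 28.3% of all genes lower and 24.3% higher (52.6% in all). A joint test of any difference among the 9 days called 25 of 82 segments, 30.5% beside 57.9% of all genes. Each first day is 1 group, so day and group cannot be told apart.

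Igkv8-18, Igkv4-58, Igkv4-80 and Igkv4-57, all of low level, had the largest slopes, from -0.58 to -0.46 (log2 per 10 days), and Igkv3-7 followed at -0.43 ± 0.07 (edgeR adjusted p = 1.36e-07). Igkv3-7 had a median of 1.67 CPM over days 2 to 9 and 0.542 CPM in the second sampling. Among the leading segments the slope was -0.18 ± 0.06 for the leading Igkv1 segment, -0.25 ± 0.06 for Igkv1-110 and -0.24 ± 0.07 for Igkv10-96. No segment was called within the sets of groups, and some slopes turned sign there, as given below. That of Igkv8-18 was above 0 in both sets, and those of Igkv4-57 and Igkv4-80 were above 0 in groups 1 to 4. Within groups 1 to 4 edgeR called 0 segments (1 at an unadjusted p under 0.05), beside 23.2% of all genes. Within groups 6 to 9 it called 0 (2 at an unadjusted p under 0.05), beside 2.74% of all genes. The sum changed by -0.20 ± 0.13 within groups 1 to 4 and by -0.24 ± 0.35 within groups 6 to 9 per 10 days (log2 CPM ± SE). On the TMM scale the median slope over the 82 segments was -0.048 and 0.0039 in that order, beside -0.22 in the fit over all 9 groups.

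The second sampling had lower Igkv levels than the first in the 180 conventional libraries, with group as a covariate. The sum differed by -0.84 ± 0.13 (log2 CPM ± SE) and by -0.41 ± 0.08 on the TMM scale. Of the 82 segments 35 were lower and 0 higher, a share of 42.7% beside 31.2% of all genes lower and 31% higher (62.3% in all). The log2 value was below 0 for 81 of 82 segments, with a median of -0.36 beside -0.02 over all genes. All 10 segments with the highest mean TPM except Igkv5-43 were among the 35.

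Igkv4-69, a low segment with a median of 0.037 CPM in the first and 0 CPM in the second sampling, had the largest fall, 0.88 ± 0.31 (log2 ± SE). Igkv10-95 fell by 0.73 ± 0.30, ENSMUSG00000105606.2 of family Igkv2 by 0.64 ± 0.17 and Igkv8-16 by 0.63 ± 0.23. ENSMUSG00000096336.3 was at 0.228 to 4.42 CPM (median 1.94) in the first and 0.025 to 5.01 CPM (median 0.853) in the second sampling. These ranges overlapped, and this segment fell by 0.61 ± 0.10 (edgeR adjusted p = 4.18e-08). Igkv10-96 went from a median of 2.82 to 1.53 CPM and fell by 0.44 ± 0.09. For the leading Igkv1 segment the medians were 3.51 and 2.00 CPM and the fall 0.35 ± 0.10, and Igkv1-110 went from 2.46 to 1.43 CPM and fell by 0.30 ± 0.10.

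In groups 1 to 4, whose first days were earliest, the sum changed by -1.28 ± 0.16 (log2 CPM ± SE). On the TMM scale the median over the 82 segments was -0.60 there. Called lower were 42 segments, including all 35 above, beside 64.3% of all genes called in either direction. These groups are part of the libraries that gave the 35. In groups 6 to 9 the sum changed by -0.45 ± 0.20 (log2 CPM ± SE), and the median over the segments was -0.19 on the TMM scale. There edgeR called 0 segments (2 at an unadjusted p under 0.05), beside 19.3% of all genes. The difference between these sets was not tested.

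**Figure D4:**
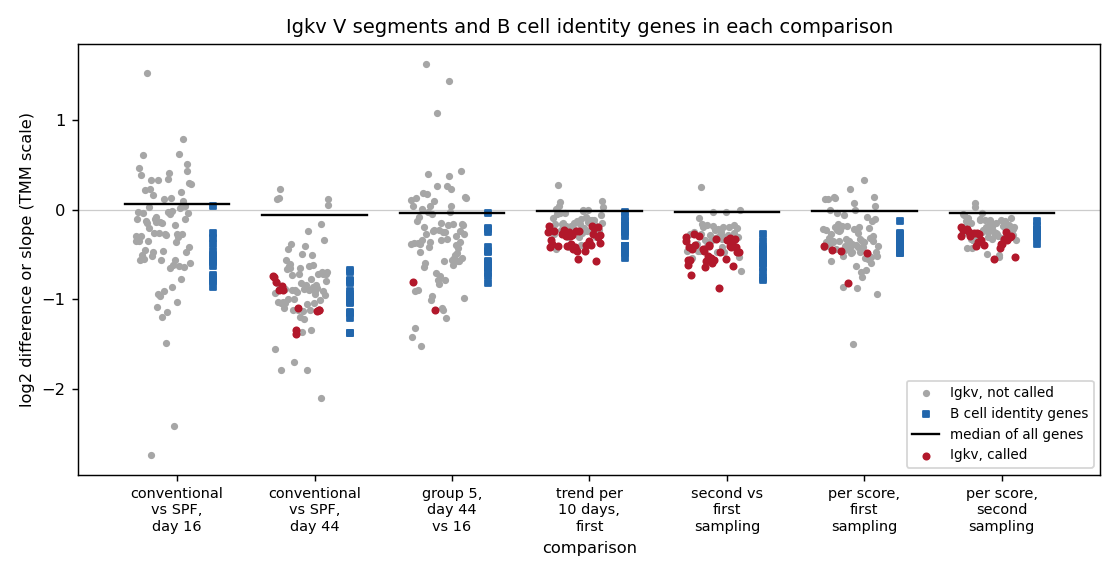
Log2 difference or slope on the TMM scale (y axis) of each tested Igkv segment (82 points, red where called at an adjusted p under 0.05) and of the 16 B cell identity genes (blue squares) in 7 comparisons (x axis), with the median of all genes as a black line. Called segments all lie below the line for all genes, in numbers of 0, 12, 2, 34, 35, 5 and 23 from left to right, and most B cell identity genes lie below it too.

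Igkv levels were also lower at higher dermatitis scores. In the second sampling the median sum was 53.1 CPM at score 0 (21.97 to 111.6 CPM, n = 7), 30.4 CPM at 0.5 (n = 5) and 35.6 CPM at 1 (n = 11). It was 28.5 CPM at score 2 (3.73 to 77.9 CPM, n = 27), 17.4 CPM at score 3 (4.37 to 69.4 CPM, n = 39) and 7.99 CPM in the single library at score 4. The ranges overlapped, and 22 of 39 libraries at score 3 lay below the lowest at score 0. With group as a covariate the slope was -0.48 ± 0.10 per score unit (log2 CPM ± SE) and -0.28 ± 0.06 on the TMM scale.

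For the score in the second sampling 23 of 82 segments were called lower and 0 higher, 28% beside 19.8% of all genes lower and 17.8% higher (37.6% in all). Igkv4-70 and ENSMUSG00000096632.3 of family Igkv9, both of low level, had the largest slopes, -0.55 ± 0.20 and -0.53 ± 0.21 (log2 per score unit ± SE). Igkv5-39, ENSMUSG00000076523.3 of family Igkv15 and Igkv3-4 followed at -0.43 ± 0.13, -0.40 ± 0.15 and -0.40 ± 0.11. Igkv5-43 had a median of 1.82 CPM at score 0 and 0.502 CPM at score 3, and a slope of -0.39 ± 0.10 (edgeR adjusted p = 0.00113). At score 0 the leading Igkv1 segment had a median of 3.68 CPM, at score 3 one of 1.39 CPM, and its slope was -0.29 ± 0.07 (adjusted p = 0.000792). In groups 1 to 4 alone, part of the same libraries, 16 segments were called, of which 14 were among the 23, beside 30.8% of all genes. In groups 6 to 9 alone edgeR called 0 segments (4 at an unadjusted p under 0.05) and 0% of all genes. With the globin and mitochondrial rRNA shares as covariates 2 segments and 17.6% of all genes were called.

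In the first sampling of days 12 to 30, with scores of 0 to 3, the slope of the sum was -0.51 ± 0.14 per score unit (log2 CPM ± SE) and -0.39 ± 0.11 on the TMM scale. The median sum was 49.9 CPM at score 0 (n = 28), 37.3 CPM at 0.5 (n = 9), 40.4 CPM at 1 (n = 12) and 16.9 CPM at 2 (n = 10). The single library at score 3 had 28.3 CPM. Igkv3-5, Igkv6-17, Igkv19-93, Igkv12-44 and the leading Igkv1 segment were called lower, 6.1% of 82 segments beside 4.02% of all genes lower and 5.91% higher (9.94% in all), and 0 were called higher. Igkv6-17 had a slope of -0.49 ± 0.12 (log2 per score unit ± SE, edgeR adjusted p = 0.00582) and the leading Igkv1 segment one of -0.41 ± 0.13 (adjusted p = 0.0343). DESeq2 called 9 segments, beside 12.5% of all genes, and within groups 6 to 9 edgeR called 2, beside 7.28% of all genes. The difference of the slopes between the samplings was tested, with 0 of 82 segments and 0% of all genes called (3 at an unadjusted p under 0.05, and 0 by DESeq2).

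Other genes of the antibody light and heavy chains were read beside the V segments. Their counts between samplings stand against the 31.2% of all genes called lower and 31% called higher. Igkc, the kappa constant gene, had a median of 16.1 CPM in the first sampling (3.08 to 32.4 CPM) and 8.53 CPM in the second (1.01 to 26.4 CPM), and fell by 0.47 ± 0.07 (log2 ± SE). Per length, the summed Igkv level exceeded that of Igkc in every library, by a ratio of TPM with a median of 7.17 (3.26 to 21.1). As each kappa chain is encoded by a V segment and Igkc, the absolute levels of both are uncertain. The cause of this excess was not tested. In the fit over first-sampling days, the lambda constant gene Iglc2 had a mean log2 CPM of 5.21, above Igkc at 3.97. Iglc1 and Iglc3 lay below Igkc. Levels of kappa and lambda were therefore not compared. Of the 6 tested lambda light chain genes all 6 fell between samplings, with a median of -0.75. Summed Ighv segments of the heavy chain changed by -0.99 ± 0.12 and summed Iglv segments by -1.23 ± 0.14 between samplings (log2 CPM ± SE), beside -0.84 ± 0.13 for Igkv.

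Of the 8 tested heavy constant genes 5 rose and 3 fell between samplings (edgeR), beside 31% of all genes called higher and 31.2% called lower. Ighg1, the constant gene of IgG1, was at 0 to 3.72 CPM (median 0.427) in the first and 0.254 to 8.13 CPM (median 1.95) in the second sampling, and rose by 2.19 ± 0.17 (log2 ± SE). Ighe, the constant gene of IgE, had a median of 0 CPM in the first and 0.084 CPM in the second sampling, and rose by 1.77 ± 0.31. Igkv segments, by contrast, were called higher in 0 of the 10 comparisons with a direction.

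B cell identity genes were lower in the same comparisons as the segments. Between samplings all 16 tested genes of that list fell, with a median of -0.53 beside -0.36 for the 82 segments. On day 44 conventional mice had 15 of 16 lower (median -1.001), beside 11.6% of all genes called lower. On the second-sampling score 16 of 16 had negative called slopes (median -0.28), beside 19.8% of all genes. Of the 16 genes for plasma cells and antibody secretion 7 fell and 3 rose between samplings (median -0.28), beside 31.2% of all genes called lower and 31% called higher. Mzb1, a chaperone of marginal zone B cells and plasma cells, fell by 0.50 ± 0.08. Of the 5 tested genes for light chain rearrangement and the surrogate light chain 4 fell, with a median of -0.92. Of the 7 tested germinal centre and activation genes 4 rose and 1 fell.

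The segments were also read relative to B cell markers. The ratio of summed Igkv CPM to the summed CPM of Ms4a1, Cd79a, Cd79b and Cd22 needs no scaling between libraries. Its median was 0.1003 in SPF day 16, 0.1359 in SPF day 44, 0.1030 in group 1 on day 2 and 0.1210 to 0.1634 in the second-sampling groups. The ratio differed by 0.16 ± 0.12 (log2 ± SE) between conventional and SPF mice on day 44, where 2 of 50 conventional libraries lay below the lowest SPF library. It was higher in the second sampling by 0.22 ± 0.04, and its slope on the second-sampling score was -0.01 ± 0.03. At scores of 0 to 3 in that sampling its median stayed between 0.1347 and 0.1573, while the summed markers went from a median of 353 CPM at score 0 to 125.8 CPM at score 3.

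**Figure D5:**
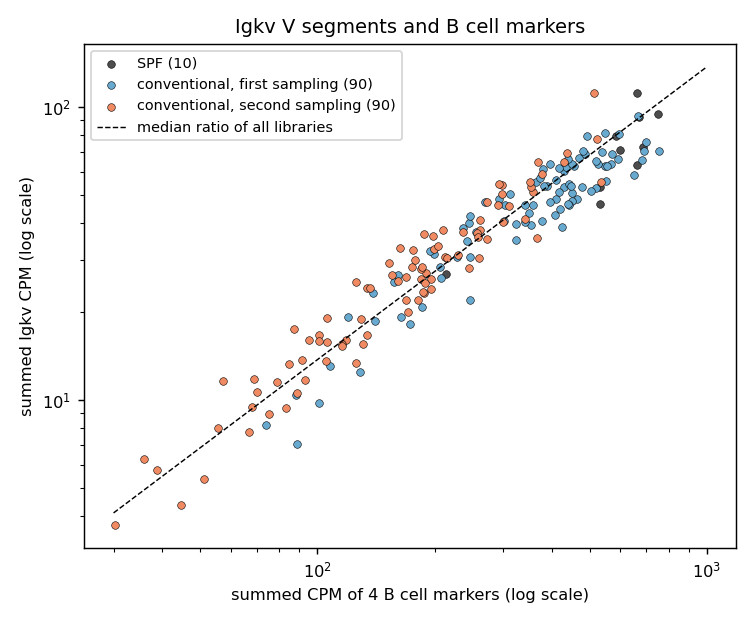
Summed Igkv CPM (y axis, log scale) against the summed CPM of the B cell markers Ms4a1, Cd79a, Cd79b and Cd22 (x axis, log scale) in 190 libraries, 1 point per library coloured by set, with the median ratio of all libraries as a dashed line. Libraries of all 3 sets lie along the line, from 30.3 to 755 CPM of markers, and the ratio stays between 0.0797 and 0.217.

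Markers of other blood cells moved at the same time, and their counts are read against the same shares of all genes as those of the segments. Between samplings 9 of 9 neutrophil markers rose (median 1.69), 7 of 7 globin and reticulocyte genes rose (median 0.64) and 7 of 8 T cell markers fell (median -0.16). Globin RNA was depleted from these libraries, so more globin RNA in the blood and a weaker depletion cannot be told apart. On day 44 the 9 neutrophil markers were all higher in conventional mice, with a median of 3.26. On the second-sampling score 9 of 9 neutrophil markers had positive called slopes, with a median of 0.47. Of the 9 skin, cartilage and muscle genes of the tail 7 fell between samplings. The part of these cells in the Igkv values was not tested.

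The gene whose log2 CPM followed the summed Igkv level most closely was Ighd, the constant gene of IgD, with a Pearson's r of 0.967 for deviations from the group means over 190 libraries. Among genes that are not immunoglobulins the 10 closest were Gm15675, Zfp318, Bank1, Fchsd2, Cr2, Bcl11a, Ebf1, Cd55, Dennd5b and Blnk, with r from 0.959 to 0.949. Bank1 and Blnk are adaptors of B cell receptor signalling, Cr2 is a complement receptor of mature B cells, and Ebf1 is a transcription factor of the B lineage. Zfp318 is needed for IgD expression. Igkc had an r of 0.937 and Mzb1 one of 0.822, which ranked it 1520. All these values come from the same libraries and share their depth and composition.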

How the data were processed

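The authors deposited expected counts per gene and TPM per gene for 190 libraries of stranded total RNA, depleted of ribosomal and globin RNA per the labels' protocols. DRAGEN and GRCm39 are named, per the submitters' processing notes, and nothing used here gives a version or an annotation release. The 2.86% of count values that were not whole were rounded. Low genes were removed with filterByExpr (10 counts, 15 in total, 20 groups), libraries were scaled by TMM, and two-sided quasi-likelihood tests were run in edgeR 4.0.16 under R 4.3.3 with robust dispersion. P-values were Benjamini-Hochberg adjusted over 18192 genes. The fit was tested on simulated counts. DESeq2 1.42.0 was an alternative. The SE of a log2 value is its size over the square root of F. Sums, shares and ratios carry no p. Their SE comes from the variances within groups for housing and for day 16 against day 44, and from a least-squares fit over libraries for the samplings and slopes. Both samplings of a group were taken as independent, and p-values measure the spread between libraries.

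The members, the gene lists and the rule for named genes (the 10 segments with the highest mean TPM, those leading 5 libraries or more, up to 5 called falls and rises per comparison, and listed genes) were chosen with earlier results of these data known. Igkv1-35, Igkv10-94, the usage of Igkv3-12 and the relative of ENSMUSG00000096336.3 were chosen after their values were seen. Splits of group 5 by globin, groups 1 and 3 alone on day 44, and sums and shares within sets of groups were added after seeing the data, as was the ratio to 4 B cell markers. One listed gene is not reported here.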

Additional observations from a re-analysis of the deposited data

Results flagged for a closer look

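In each of the 20 groups the highest and lowest library were tested by Dixon's criterion at the 95% level for 3 measures, 60 tests in all. It marked 8, where chance alone marks about 1 in 20.

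For the summed Igkv level, the library of group 4, day 40 (replicate 9) at 64.7 CPM was far above the next at 36.3 CPM. In group 8, day 26, replicate 1 at 8.18 CPM was far below the next at 37.3 CPM. For the number of segments with a count of at least 10, replicate 3 of group 1, day 2 had 63 against 53 in the next, and replicate 3 of group 4, day 12 had 31 against 46 in the next.

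For the share of the most used segment, replicate 4 of group 1, day 44 had 17.2% against 12.3% in the next, on 204 Igkv reads. In group 7, day 23, replicate 6 had 15.5% against 9.66%, on 200 reads. In group 3, day 44, replicate 5 had 9.56% against 7.58%, on 293 reads, and it was the single library at score 4. In group 6, day 19, replicate 3 had 11.9% against 9.29%.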

How the results depend on the processing

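Of the results that answer a comparison, 218 alternatives stayed within 1.5 times of a count or within the spread between libraries of a value. In 20 others a count of calls was lower by more than that, in 2 it was higher, and 7 values moved by more than the spread. For single genes 390 alternatives kept direction and side of the threshold, 10 turned sign, and all the others kept direction but lost the call. For conventional against SPF mice on day 44 the summed difference was -0.93 on the TMM scale and 0.16 relative to B cell markers, and the difference in detected segments was -3.32 after thinning. The sum relative to B cell markers differed by 0.22 between samplings. Within groups 1 to 4, where only group 4 enters, the score slopes of the first sampling were -1.31 for the sum, -27.25 for detected segments and -6.82 for the effective number. There, replicates 1 and 3 alone scored above 0, both at 0.5, and replicate 3 was marked above for few detected segments. These slopes per score unit extend beyond the scores seen in that group.

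Brackets hold the share of all tested genes called in either direction. With globin and mitochondrial rRNA shares as covariates, edgeR called 27 segments for housing on day 44 (34%) and 1 for group 5 (9.69%). It called 17 for the trend (35.4%) and 2 for the second-sampling score (17.6%). Without 1 SPF replicate, 4 to 6 were called for housing on day 44 (11.9% to 17.2%). Group 5 libraries of 5% globin or more gave 0 (2.95%). With no filter on low counts, group 5 gave 1 (4.95%) and the first-sampling score 3 (4.52%), for which DESeq2 gave 9 (12.5%). In groups 1 to 4 alone, the test among first days gave 1 (27.9%), the trend 0 (23.2%) and the first-sampling score 0 (0%). In groups 6 to 9 alone, these gave 7 (14%), 0 (2.74%) and 2 (7.28%). There the second sampling gave 0 (19.3%) and its score 0 (0%). The cause was not tested, and fewer libraries enter each subset.

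Some trends turned sign within sets. In groups 1 to 4 the slope was 0.107 for Igkv10-96, 0.141 for ENSMUSG00000095771.3, 0.0955 for Igkv4-57, 0.0891 for Igkv4-80, 0.0824 for Igkv6-17 and 0.689 for Igkv8-18. In groups 6 to 9 it was 0.0015 for the leading Igkv1 segment, 0.0063 for Igkv10-96, 0.561 for Igkv8-18 and 0.0202 for Mzb1.

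Same-numbered samples correlated above 0.1 in 37 of 95 pairs, and a sample correlated best with its own number in 13, so the numbers were not taken to pair mice. With the replicate block, edgeR called 48 segments between samplings, beside 61.1% of all genes called in either direction. It called 18 for the second-sampling score (31.7% of all genes) and 2 for the first-sampling score (3.05%). The trend gave 31 (52.3%), housing on day 44 gave 11 (17.6%) and group 5 gave 3 (13%). Low Igkv reads limit shares and the number of segments seen, most in the 8 libraries under 300 reads.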
